A study of Homo sapiens with 12 samples.

Results

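The first transcripts to change when PANC-1 cells met tumour necrosis factor (TNF) were measured by comparing cells given TNF for 30 min with unstimulated cells, both carrying a control siRNA. PANC-1 is a human pancreatic ductal adenocarcinoma cell line. The comparison uses 4 of the series' 12 total RNA-seq libraries, chosen by condition words in the names of the deposited count files: 2 libraries with the words Scr1 and 30min against 2 with Scr1 and CLM. Scr1 was read as the control siRNA and CLM as no TNF. The cells had been transfected with siRNA for 72 h, and treated wells received recombinant human TNF-α at 100 ng/mL. The other 8 libraries are 2 each of control siRNA with 4 h of TNF, and of SIK3 siRNA unstimulated, with 30 min and with 4 h of TNF. Each group holds 2 biological replicates, lettered B and C, of 1 cell line. In the main fit the p-values measure the spread between replicates left after removing a letter effect common to all groups, estimated over all 12 libraries. Fits described as without the block keep the letter effect in that spread.

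The condition words conflict with the sample titles in 8 of the 12 libraries and match them in 4. The libraries called TNF 30 min here are titled siAS1 unstimulated, whereas the unstimulated control siRNA libraries carry that name under both labels. The libraries titled control siRNA with 30 min of TNF carry the words for 4 h of TNF. Both labels make the same 6 pairs of libraries, so the measured difference is the same under both, and what it is called differs. By title it would be the effect of the siAS1 siRNA without TNF, and the titled control siRNA response to 30 min of TNF would be that of another pair, in which 3928 genes passed the test (1883 higher, 2045 lower). The siRNA target is given as AS1 in the titles and as SIK3 in the sample characteristics. Below, each library is called by the words of its file.

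SIK3, the targeted kinase gene, had 42.5 and 68.7 CPM (read counts relative to library size, scaled by TMM, replicate B then C) after 30 min of TNF with control siRNA, against 34.3 and 60.4 CPM in unstimulated cells with control siRNA. It stood at 34.4 and 65.2 CPM after 4 h of TNF with control siRNA. In the libraries whose file words name the SIK3 siRNA it stood at 16.3 and 22.4 CPM unstimulated, 17.3 and 24.0 CPM after 30 min and 18.3 and 22.8 CPM after 4 h. Every library named control siRNA by its file words was therefore above every one named SIK3 siRNA. By title, the high values would include 2 libraries of siAS1, those read here as control siRNA with 30 min of TNF, and the low values 2 libraries of control siRNA with 4 h of TNF, those read here as SIK3 siRNA with 30 min. Between the TNF 30 min and unstimulated libraries of control siRNA, SIK3 did not pass the test (log2 fold change 0.24 ± 0.098 (SE), adjusted p = 0.256).

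The 4 libraries held 18743266 and 19003108 gene counts after TNF and 19025746 and 14323580 in unstimulated cells. For a gene without any count, 3 counts set a limit of 0.158 to 0.209 CPM by library, which covers counting error only. All 9 PANC-1 ductal carcinoma markers were tested and 0 were called by edgeR (1 at an unadjusted p under 0.05, 0 by DESeq2 or voom). Of all 16695 genes tested, 2193 had an unadjusted p under 0.05 in edgeR. The summed levels of marker sets follow. The 9 ductal carcinoma markers summed to 10160 and 9976 CPM after TNF and 10410 and 9415 CPM in unstimulated cells. The 6 acinar markers were at 0 in all 4 libraries, and summed levels were at most 0.0549 CPM for 5 endocrine, 0.768 CPM for 6 leukocyte, 0.687 CPM for 5 endothelial and 19.98 CPM for 6 fibroblast markers. In bulk RNA, fewer cells expressing a gene and less RNA per cell cannot be told apart.

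TNF binds its receptor at the cell surface and assembles a complex of adaptors and ubiquitin ligases that activates the IKK and MAP kinases. IKK marks the inhibitor IκBα for destruction, which frees NF-κB dimers to enter the nucleus, where the inhibitor's own gene and other feedback genes are among the targets. MAP kinases in turn activate SRF, ternary complex and AP-1 factors, which drive immediate early genes. Because these proteins exist before the stimulus, the first genes of both waves need no new protein, and many of their transcripts are short-lived.

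Of 16695 genes tested, 464 (2.78%) passed an adjusted p of 0.05 in edgeR's quasi-likelihood test with the replicate letter as a block: 303 were higher after TNF (1.81%) and 161 lower (0.964%). The higher genes had a median change of 1.38-fold, with 68 over 2-fold and 32 over 4-fold. The lower genes had a median change of 1.28-fold, with 6 over 2-fold and 3 over 4-fold. The 2 libraries after TNF both lay above both unstimulated ones for 264 of the 303, and both below for 134 of the 161. Over all genes tested the groups did not overlap in 4421 (26.5%), counting both directions. Without the block 49 genes passed, 45 higher and 4 lower, all among the 464. With 1 library left out and the block kept, 155 genes passed without TNF replicate B, 233 without unstimulated replicate B, 341 without unstimulated replicate C and 362 without TNF replicate C. The call held in all 4 of these fits for 96 of the higher and 26 of the lower genes.

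**Figure D1:**
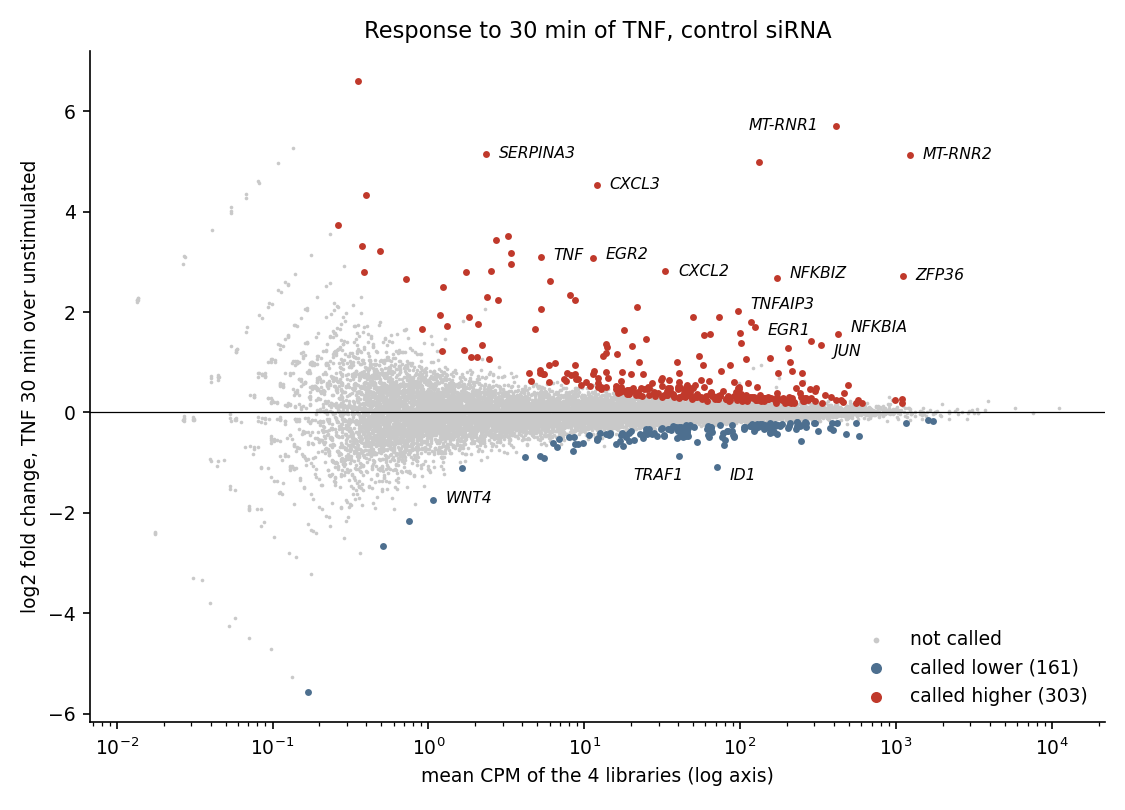
Log2 fold change of TNF 30 min over unstimulated cells (vertical axis) against the mean CPM of the 4 libraries (horizontal log axis), 1 point per gene tested, with the 303 genes called higher in red, the 161 called lower in blue and the rest in grey. At high level the red point of ZFP36 lies at a log2 fold change of 2.72, with MT-RNR1 (5.71) and MT-RNR2 (5.14), described next, above it. The lowest blue point at over 10 CPM is ID1 at −1.08.

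MT-RNR1 and MT-RNR2, the mitochondrial ribosomal RNA genes, lie farthest from 0 among the called genes of high level, and are named here after their values were seen. MT-RNR1 had 1422 and 102 CPM after TNF, against 3.17 and 134 CPM in unstimulated cells. MT-RNR2 had 2698 and 915 CPM after TNF, against 14.2 and 1289 CPM in unstimulated cells. In both genes the groups overlapped, and without TNF replicate B the log2 fold changes were −0.23 and −0.18 (adjusted p = 0.958 and 0.981). Of the 13 mitochondrially encoded mRNAs edgeR called 0 (5 at an unadjusted p under 0.05, beside 2193 of all 16695 genes tested, and 0 by DESeq2 or voom). In TNF replicate B 17.6% of reads mapped to several places, as did 30.9% in TNF replicate C, against 5.38% and 38.2% in unstimulated replicates B and C. Over the series, the other B libraries had 4.94% to 5.82% and the C libraries 10.2% to 45.3%. TNF replicate B is also the library whose omission left the fewest calls. A letter effect common to all groups does not take up a departure of a single library. The part of this in other results was not tested.

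Of 20 genes for the TNF receptors, their adaptors and the IKK kinases, 0 rose and 1 fell. Of all genes tested 1.81% rose and 0.964% fell, and these shares stand beside every list count below. The list had a median log2 fold change of −0.09, beside −0.001 for all genes. The one that fell was BIRC2, which encodes a ubiquitin ligase of the complex, with 309 and 248 CPM after TNF, against 358 and 287 CPM in unstimulated cells (log2 fold change −0.21 ± 0.052 (SE), adjusted p = 0.0274). Its groups overlapped, although each replicate was lower after TNF, and its call was lost in every fit that left out a library (adjusted p from 0.0842 to 0.272). BIRC3, its close relative and a known NF-κB target, had 1469 and 1335 CPM after TNF, against 1646 and 1430.0 CPM in unstimulated cells, and did not pass (adjusted p = 0.221).

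Among the 5 NF-κB subunits none rose at 30 min, and RELB and NFKB1 fell. RELB, the subunit of the slower noncanonical dimer, had 27.3 and 27.9 CPM after TNF, against 38.8 and 36.3 CPM in unstimulated cells (log2 fold change −0.44 ± 0.081 (SE), adjusted p = 0.0025). NFKB1, which encodes the precursor of the commonest DNA-binding subunit, had 158 and 148 CPM after TNF, against 185 and 183 CPM in unstimulated cells (log2 fold change −0.26 ± 0.054 (SE), adjusted p = 0.00679). In both genes both TNF libraries lay below both unstimulated ones. RELA, the main activating subunit, had 66.5 and 93.5 CPM after TNF, against 66.0 and 95.7 CPM in unstimulated cells, and its values tracked the replicate letter. Neither RELB nor NFKB1 passed without the block (adjusted p = 0.335 and 0.627). RELB lost the call without TNF replicate B (0.164), and NFKB1 without TNF replicate B (0.0586), TNF replicate C (0.0987) or unstimulated replicate C (0.0569).

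Several NF-κB inhibitors and feedback genes rose within 30 min. NFKBIA, which encodes IκBα, had 654 and 622 CPM after TNF, against 234 and 198 CPM in unstimulated cells (log2 fold change 1.57 ± 0.061 (SE), adjusted p = 1.08e-13). TNFAIP3, a ubiquitin-editing enzyme that shuts the receptor complex down, had 149 and 161 CPM after TNF, against 36.0 and 40.4 CPM in unstimulated cells (log2 fold change 2.02 ± 0.081 (SE), adjusted p = 1.8e-13). NFKBIZ, a nuclear IκB protein that opens a subset of NF-κB targets, had 309.8 and 292 CPM after TNF, against 44.4 and 49.5 CPM in unstimulated cells (log2 fold change 2.69 ± 0.077 (SE), adjusted p = 1.96e-15). The groups were far apart in all 3 genes, and the replicates of a group close together. NFKBID, another nuclear IκB protein, had 22.4 and 31.8 CPM after TNF, against 6.03 and 11.6 CPM in unstimulated cells (log2 fold change 1.65 ± 0.13 (SE), adjusted p = 2.88e-08), and OTULIN, which trims linear ubiquitin chains, 68.2 and 56.3 CPM after TNF, against 50.2 and 50.4 CPM in unstimulated cells (log2 fold change 0.31 ± 0.075 (SE), adjusted p = 0.0268).

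Against these 5 of 15 feedback genes, 2 fell. TRAF1, an adaptor that binds TNF receptor family members, had 27.5 and 30.0 CPM after TNF, against 53.5 and 51.9 CPM in unstimulated cells (log2 fold change −0.87 ± 0.071 (SE), adjusted p = 3.31e-08), with both TNF libraries well below both unstimulated ones. CYLD, a deubiquitinase that restrains NF-κB, had 73.8 and 71.3 CPM after TNF, against 96.0 and 90.4 CPM in unstimulated cells (log2 fold change −0.36 ± 0.066 (SE), adjusted p = 0.00274). The list's median log2 fold change was 0.05. NFKBIA, TNFAIP3, NFKBIZ and TRAF1 also passed without the block, where NFKBID, OTULIN and CYLD did not (adjusted p = 0.304, 0.882 and 0.714). OTULIN lost its call without unstimulated replicate B (0.309) or TNF replicate B (0.545), and CYLD without TNF replicate B (0.154).

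Of 6 chemokines that draw neutrophils through the receptor CXCR2, 4 rose and 0 fell (median log2 fold change 1.91). CXCL3 had 24.0 and 22.4 CPM after TNF, against 0.952 and 1.06 CPM in unstimulated cells, a 23.3-fold difference (log2 fold change 4.54 ± 0.20 (SE), adjusted p = 8.97e-13). CXCL2 had 54.3 and 62.0 CPM after TNF, against 7.40 and 9.19 CPM in unstimulated cells (log2 fold change 2.81 ± 0.10 (SE), adjusted p = 6.7e-14). Both genes were low in each unstimulated library and high in each TNF library, with little spread between replicates. CXCL1 had 107 and 124 CPM after TNF, against 27.4 and 34.4 CPM in unstimulated cells (log2 fold change 1.91 ± 0.072 (SE), adjusted p = 8.34e-14), and CXCL8, the chemokine also called interleukin 8, had 87.3 and 70.4 CPM after TNF, against 25.1 and 16.96 CPM in unstimulated cells (log2 fold change 1.91 ± 0.095 (SE), adjusted p = 6.61e-12). The other two list members were low in every library: CXCL5 had 0.932 and 0.964 CPM after TNF, against 1.06 and 1.20 CPM in unstimulated cells, and CXCL6 0.219 and 0.536 CPM after TNF, against 0.634 and 0.495 CPM in unstimulated cells, neither called (adjusted p = 0.88 and 0.791). The 4 calls held without the block and in all 4 fits with a library left out. CXCL1, CXCL2 and CXCL3 are close paralogs, and how reads common to them were counted is not given in the sources used here.

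Promoter stretches of 7 of these genes are shown because each holds the letters GGANNTTCC, a core of the κB element bound by NF-κB, within 250 bases of the start. The sequences are from RefSeq (GRCh38.p14), read 5′ to 3′ on the strand of the gene, with each match, on either strand, in capitals. CXCL1 is from chr4:73869273-73869372 (plus strand), CXCL2 from chr4:74099216-74099315 (minus), CXCL3 from chr4:74038710-74038809 (minus) and CXCL8 from chr4:73740449-73740548 (plus), which lie together on chromosome 4. NFKBIA is from chr14:35404750-35404849 (minus), TNFAIP3 from chr6:137867139-137867238 (plus) and NFKBIZ from chr3:101827748-101827847 (plus). The capitals begin at position −78 from the start in CXCL1 and CXCL3, −77 in CXCL2 and −91 in CXCL8, and the first 3 promoters are much alike around them.
CXCL1: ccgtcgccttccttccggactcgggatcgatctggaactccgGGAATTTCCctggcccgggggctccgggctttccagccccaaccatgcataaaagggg
CXCL2: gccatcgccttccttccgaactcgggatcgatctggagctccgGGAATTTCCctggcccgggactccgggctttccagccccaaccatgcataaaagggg
CXCL3: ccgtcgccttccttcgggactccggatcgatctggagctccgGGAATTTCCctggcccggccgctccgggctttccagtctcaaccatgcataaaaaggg
CXCL8: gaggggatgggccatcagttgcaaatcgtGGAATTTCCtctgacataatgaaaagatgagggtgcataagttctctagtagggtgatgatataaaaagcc
NFKBIA: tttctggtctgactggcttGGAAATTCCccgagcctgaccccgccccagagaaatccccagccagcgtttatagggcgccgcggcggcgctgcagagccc
TNFAIP3: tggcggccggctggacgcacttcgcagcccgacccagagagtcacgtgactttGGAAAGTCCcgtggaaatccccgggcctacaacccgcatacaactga
NFKBIZ: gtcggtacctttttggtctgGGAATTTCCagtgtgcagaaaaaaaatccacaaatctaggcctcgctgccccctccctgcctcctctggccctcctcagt

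The κB letters are in the promoters of genes that did not rise as well. RefSeq promoters (300 bases, 250 before the start and 50 after it) were matched for 233 of the 303 higher and 125 of the 161 lower genes. The letters, on either strand, were in 23 of the 233 (9.87%), in 12 of the 49 higher genes over 2-fold (24.5%), in 11 of the 125 lower ones (8.8%), in 518 of the 11348 tested genes with a promoter (4.56%) and in 1253 of all 27305 promoters (4.59%). CXCL5 and CXCL6, which did not pass, hold GGAATTTCC at positions −90 and −89, next to the position in CXCL8, and the promoters of ICAM1 and NFKB1 hold the letters too. The cAMP response element TGACGTCA was in 10 of the 233 (4.29%), 1 of the 49 over 2-fold (2.04%), 1 of the 125 (0.8%), 375 tested (3.3%) and 540 of all promoters (1.98%). A match describes the letters and shows neither binding nor a cause.

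Other inflammatory ligands rose as well. The TNF gene itself had 7.40 and 11.4 CPM after TNF, against 0.899 and 1.27 CPM in unstimulated cells (log2 fold change 3.10 ± 0.21 (SE), adjusted p = 1.12e-09). CSF2, the growth factor GM-CSF, had 2.14 and 2.04 CPM after TNF, against 0.211 and 0.566 CPM in unstimulated cells (log2 fold change 2.50 ± 0.41 (SE), adjusted p = 0.000771). The 2 TNF libraries were high and the 2 unstimulated ones low in both. CCL20, which draws lymphocytes and dendritic cells through CCR6, had 33.95 and 24.2 CPM after TNF, against 13.7 and 9.61 CPM in unstimulated cells (log2 fold change 1.32 ± 0.12 (SE), adjusted p = 1.64e-07), and TNFSF9, a costimulatory ligand for T cells, 6.53 and 5.41 CPM after TNF, against 0.899 and 0.636 CPM in unstimulated cells (log2 fold change 2.95 ± 0.26 (SE), adjusted p = 1.29e-07). CCL2, the monocyte attractant, changed by less, with 548 and 703 CPM after TNF, against 457 and 593 CPM in unstimulated cells (log2 fold change 0.25 ± 0.051 (SE), adjusted p = 0.0061), and its groups overlapped. CSF1, the macrophage growth factor, fell, with 213 and 346 CPM after TNF, against 287 and 424 CPM in unstimulated cells (log2 fold change −0.36 ± 0.053 (SE), adjusted p = 0.00019), also with overlap between the groups although each replicate was lower.

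Across the lists, 2 of 9 other chemokines rose and 0 fell (median log2 fold change −0.19), 3 of 12 cytokines and growth factors rose and 2 fell (0.25), and 1 of 9 TNF superfamily ligands and death receptors rose and 2 fell (−0.14). The others that passed were LIF, higher (0.42), and IL18, TNFRSF21 and FAS, lower (−0.39, −0.28 and −0.32). TNF, CSF2 and TNFSF9 passed without the block, and CCL20, CCL2 and CSF1 did not (adjusted p = 0.528, 1 and 1). CSF2 and LIF lost the call without unstimulated replicate B (0.0781 and 0.0789), CCL2 without unstimulated replicate C or TNF replicate B (0.0678 and 0.201), IL18 without TNF replicate B (0.0795), TNFRSF21 without either replicate B (0.112 and 0.224), and FAS whichever library was left out (0.0976 to 0.31).

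SELE, which encodes the adhesion receptor E-selectin of activated endothelium, rose in these carcinoma cells, with 8.996 and 7.93 CPM after TNF, against 1.90 and 2.26 CPM in unstimulated cells (log2 fold change 2.053 ± 0.19 (SE), adjusted p = 3.52e-07). The endothelial marker CDH5 was at 0.274 and 0.214 CPM after TNF and 0.423 and 0.353 CPM in unstimulated cells. ICAM1, a textbook NF-κB target, had 301 and 411 CPM after TNF, against 351 and 424 CPM in unstimulated cells and did not pass (adjusted p = 0.231), and 1 of 7 adhesion receptors rose. IRF1, a transcription factor that carries inflammatory signals to interferon-type genes, had 285 and 291 CPM after TNF, against 114 and 123 CPM in unstimulated cells (log2 fold change 1.28 ± 0.054 (SE), adjusted p = 3.48e-13), the one called among 9 IRF and STAT factors. SERPINA3, an acute-phase protease inhibitor, had the largest fold of any gene named by the rule, with 4.28 and 4.93 CPM after TNF, against 0.159 and 0.0707 CPM in unstimulated cells (log2 fold change 5.16 ± 0.42 (SE), adjusted p = 3.46e-08). Its unstimulated libraries held 3 and 1 counts against 78 and 92 after TNF, and the ratio of the summed counts per library size was 38.1 (95% exact binomial interval 14.6 to 141, counting error only). MIR3142HG, a noncoding host gene of microRNAs, had 13.8 and 14.9 CPM after TNF, against 3.22 and 2.83 CPM in unstimulated cells (log2 fold change 2.23 ± 0.17 (SE), adjusted p = 6.67e-09). SELE, IRF1, SERPINA3 and MIR3142HG also passed without the block (adjusted p = 0.0102, 0.000349, 0.000349 and 0.00122).

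Immediate early transcription factors rose beside the NF-κB targets. All 4 EGR zinc-finger factors rose (median log2 fold change 2.95). EGR2 had 17.1 and 23.7 CPM after TNF, against 2.01 and 2.83 CPM in unstimulated cells (log2 fold change 3.07 ± 0.17 (SE), adjusted p = 4.33e-11), and EGR3 4.00 and 8.19 CPM after TNF, against 0.634 and 0.636 CPM in unstimulated cells (log2 fold change 3.17 ± 0.28 (SE), adjusted p = 1.29e-07). EGR4 had 3.67 and 5.19 CPM after TNF, against 0.687 and 0.495 CPM in unstimulated cells (log2 fold change 2.82 ± 0.30 (SE), adjusted p = 2.35e-06), and EGR1 106 and 268 CPM after TNF, against 26.5 and 96.2 CPM in unstimulated cells (log2 fold change 1.71 ± 0.10 (SE), adjusted p = 1.61e-10). In EGR1 replicate C was above replicate B in both groups, but each replicate was higher after TNF and the groups did not overlap. EGR1 and EGR3 did not pass without the block (adjusted p = 1 and 0.151).

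The EGR1 promoter is shown for its CArG boxes, the element bound by SRF, which are in capitals. It is from chr5:138465359-138465458 (plus strand, RefSeq, GRCh38.p14). CArG boxes were in 5 of the 233 promoters of higher genes (2.15%), 1 of the 49 over 2-fold (2.04%), 1 of the 125 of lower genes (0.8%), 115 of the 11348 tested (1.01%) and 351 of all 27305 (1.29%).
EGR1: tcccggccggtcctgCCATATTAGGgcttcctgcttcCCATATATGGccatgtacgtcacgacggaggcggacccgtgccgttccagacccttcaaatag

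AP-1 is a dimer of FOS and JUN family proteins that binds DNA with NF-κB at many inflammatory genes. Of 10 AP-1 factors 7 rose and 0 fell (median log2 fold change 0.68). FOS had 63.8 and 88.8 CPM after TNF, against 38.9 and 38.95 CPM in unstimulated cells (log2 fold change 0.95 ± 0.10 (SE), adjusted p = 2.51e-06), and FOSB 63.1 and 128 CPM after TNF, against 20.5 and 45.5 CPM in unstimulated cells (log2 fold change 1.55 ± 0.11 (SE), adjusted p = 3.78e-09). JUN had 487 and 463 CPM after TNF, against 196 and 178 CPM in unstimulated cells (log2 fold change 1.35 ± 0.050 (SE), adjusted p = 6.7e-14), and JUNB 89.8 and 84.4 CPM after TNF, against 31.7 and 27.9 CPM in unstimulated cells (log2 fold change 1.54 ± 0.081 (SE), adjusted p = 1.55e-11). ATF3, a stress-induced member, had 148 and 149 CPM after TNF, against 68.7 and 72.8 CPM in unstimulated cells (log2 fold change 1.07 ± 0.060 (SE), adjusted p = 4.33e-11). None of these 5 overlapped between the groups, and JUND and MAFF rose by less (log2 fold changes 0.41 and 0.34). JUN, JUNB and ATF3 passed without the block, and FOS, FOSB, JUND and MAFF did not (adjusted p from 0.078 to 1). JUND lost the call without unstimulated replicate C (0.322), TNF replicate B (0.237) or TNF replicate C (0.114), and MAFF without unstimulated replicate B (0.139) or TNF replicate C (0.279).

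The 3 NR4A orphan nuclear receptors, immediate early genes of many stimuli, also rose. NR4A1 had 10.4 and 10.4 CPM after TNF, against 1.96 and 1.27 CPM in unstimulated cells (log2 fold change 2.62 ± 0.21 (SE), adjusted p = 3.45e-08), and NR4A2 4.50 and 4.61 CPM after TNF, against 0.476 and 1.56 CPM in unstimulated cells (log2 fold change 2.25 ± 0.33 (SE), adjusted p = 0.000179). NR4A3 had 2.36 and 2.303 CPM after TNF, against 0.529 and 1.56 CPM in unstimulated cells, with the unstimulated replicates far apart (log2 fold change 1.24 ± 0.33 (SE), adjusted p = 0.0481). Of 20 other immediate early factors 10 rose and 2 fell (median 0.56). IER2 had 150.3 and 149 CPM after TNF, against 51.9 and 48.1 CPM in unstimulated cells (log2 fold change 1.58 ± 0.076 (SE), adjusted p = 4.45e-12), and IER3, a survival and signalling regulator, 412 and 424 CPM after TNF, against 149 and 163 CPM in unstimulated cells (log2 fold change 1.42 ± 0.062 (SE), adjusted p = 8.31e-13). BHLHE40, a transcriptional repressor, had 183 and 236 CPM after TNF, against 78.1 and 123 CPM in unstimulated cells (log2 fold change 1.08 ± 0.066 (SE), adjusted p = 2.05e-10), and KLF10, a zinc-finger repressor, 307 and 328 CPM after TNF, against 173 and 198 CPM in unstimulated cells (log2 fold change 0.78 ± 0.055 (SE), adjusted p = 3.01e-09). In all of these the TNF libraries lay above the unstimulated ones. The remaining 6 that rose were CSRNP1, IER5L, HES1, BTG2, IER5 and KLF6, with log2 fold changes from 0.49 to 0.77, and those that fell were TIPARP (−0.37) and ID1. NR4A1, IER2, IER3 and KLF10 passed without the block, and NR4A2, NR4A3 and BHLHE40 did not (adjusted p = 0.205, 0.768 and 0.688). NR4A3 lost the call without unstimulated replicate B (0.474), TNF replicate B (0.402) or TNF replicate C (0.0633), IER5L without unstimulated replicate C (0.0803) or TNF replicate B (0.18), TIPARP without TNF replicate B (0.0983), and BTG2 whichever library was left out.

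Some genes known to limit inflammatory responses rose within the same 30 min. Of 7 mRNA decay factors 4 rose (median 0.61). ZFP36, which binds AU-rich elements and speeds the decay of cytokine mRNAs, had 1101 and 2724 CPM after TNF, against 157 and 440.0 CPM in unstimulated cells (log2 fold change 2.72 ± 0.086 (SE), adjusted p = 6.84e-15). Its replicates C were well above its replicates B in both groups, and the difference did not pass without the block (adjusted p = 0.721). ZC3H12A, an endoribonuclease that cuts inflammatory mRNAs, had 17.8 and 22.2 CPM after TNF, against 7.35 and 8.69 CPM in unstimulated cells (log2 fold change 1.31 ± 0.12 (SE), adjusted p = 3.02e-07; 0.0677 without the block). The relatives ZFP36L1 and ZFP36L2 also rose (log2 fold changes 0.79 and 0.61), ZFP36L1 with overlap between the groups and ZFP36L2 not without unstimulated replicate B (0.2) or TNF replicate B (0.374). Of 9 MAP kinase phosphatases 3 rose and 0 fell (median −0.10). DUSP1 had 269 and 289 CPM after TNF, against 140.3 and 136 CPM in unstimulated cells (log2 fold change 1.01 ± 0.056 (SE), adjusted p = 4.11e-11), and DUSP2 16.3 and 10.9 CPM after TNF, against 3.17 and 2.19 CPM in unstimulated cells (log2 fold change 2.35 ± 0.19 (SE), adjusted p = 3.44e-08). DUSP5 changed by less, with 71.7 and 76.1 CPM after TNF, against 51.3 and 59.7 CPM in unstimulated cells (log2 fold change 0.42 ± 0.060 (SE), adjusted p = 0.000145). PHLDA1, a growth-factor response gene, was the one called of 10 ERK feedback genes, with 489.6 and 680.3 CPM after TNF, against 326 and 472 CPM in unstimulated cells (log2 fold change 0.56 ± 0.047 (SE), adjusted p = 5.37e-08). Of these, DUSP1 alone passed without the block (adjusted p = 0.00227, with 0.0804 for DUSP2, 0.311 for DUSP5 and 1 for PHLDA1).

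Of 13 growth and feedback regulators 7 rose and 0 fell (median 0.48). PIM1, a survival kinase, had 73.7 and 74.9 CPM after TNF, against 34.2 and 34.1 CPM in unstimulated cells (log2 fold change 1.12 ± 0.069 (SE), adjusted p = 2.64e-10). RHOB, a small GTPase of endosomes, had 151 and 141 CPM after TNF, against 59.0 and 53.6 CPM in unstimulated cells (log2 fold change 1.38 ± 0.064 (SE), adjusted p = 2.13e-12), and its relative RND1 3.24 and 3.16 CPM after TNF, against 0.899 and 0.990 CPM in unstimulated cells (log2 fold change 1.76 ± 0.27 (SE), adjusted p = 0.000344). PPP1R15A, a phosphatase subunit that restores translation under stress, had 249 and 306 CPM after TNF, against 137 and 177 CPM in unstimulated cells (log2 fold change 0.83 ± 0.065 (SE), adjusted p = 1.91e-08). No groups overlapped in these 4, and PPP1R15A alone of them did not pass without the block (adjusted p = 0.354). PIM3, GADD45B and SOCS3 rose by less (log2 fold changes 0.65, 0.48 and 0.32), SOCS3 not without unstimulated replicate B (0.0719) or TNF replicate B (0.156).

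**Figure D2:**
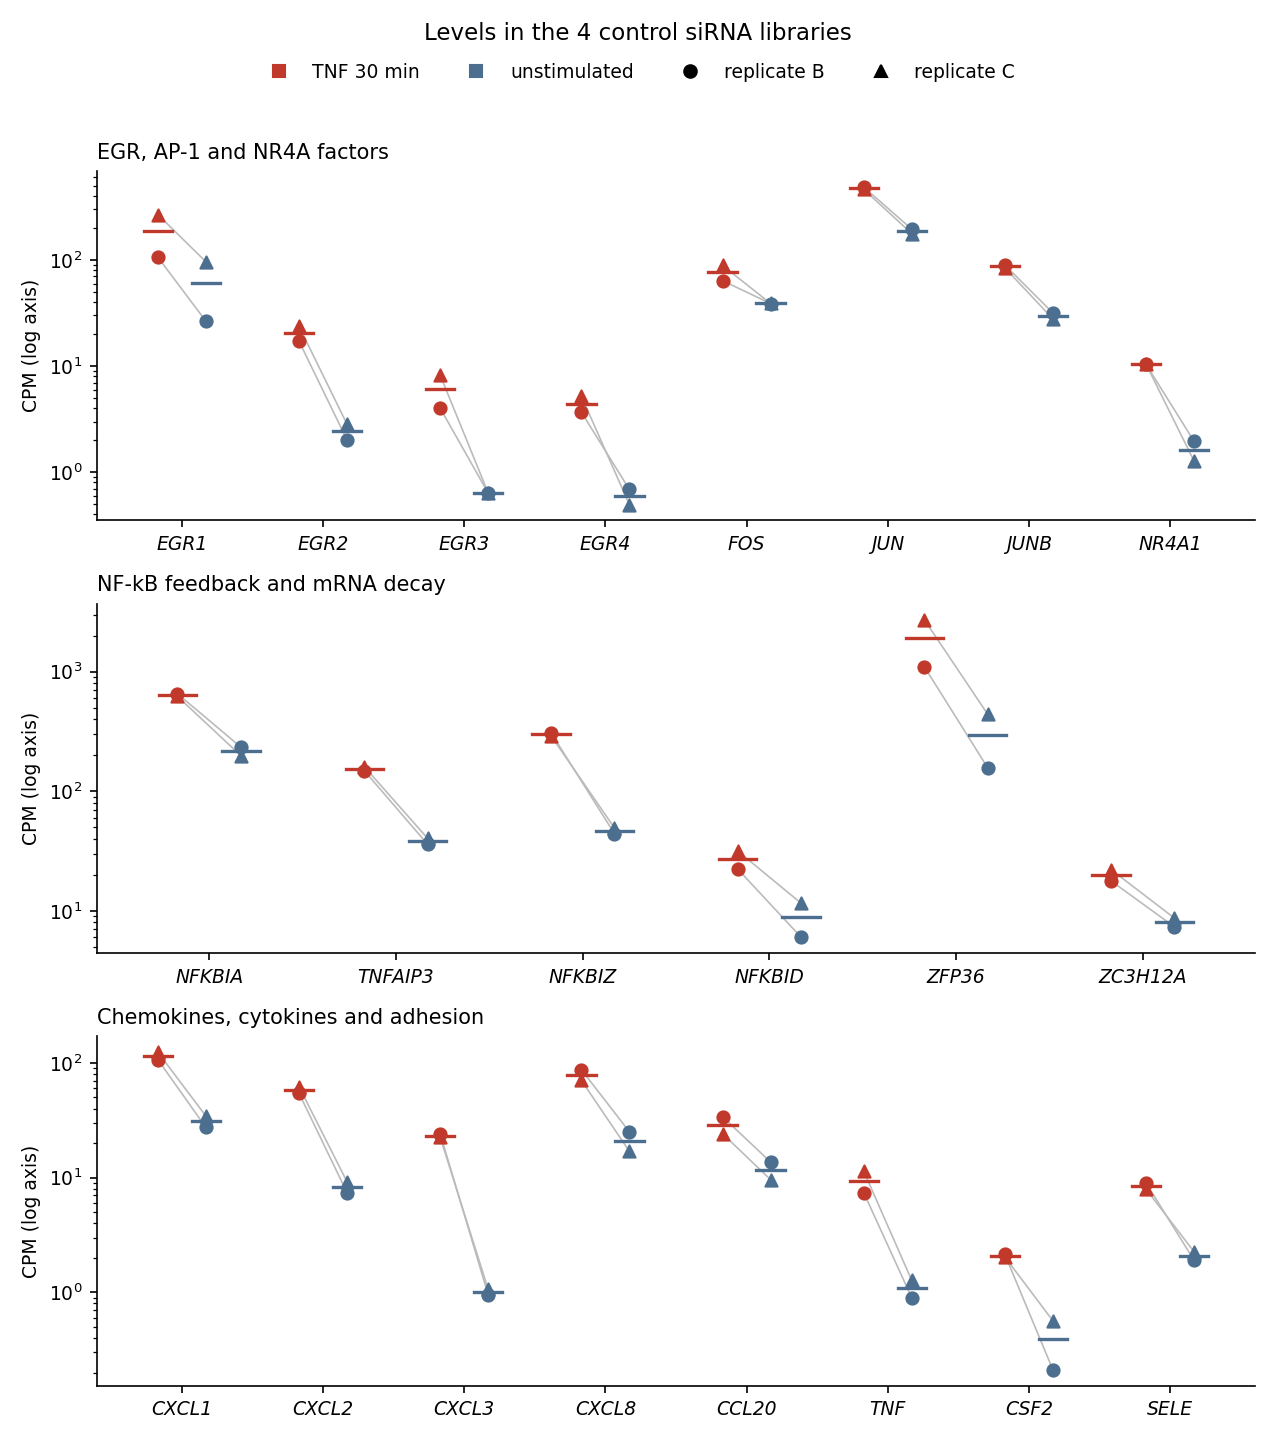
CPM on a log axis in each of the 4 control siRNA libraries for 22 genes in 3 panels, with TNF 30 min (red) left of unstimulated cells (blue), circles for replicate B, triangles for replicate C, thin lines joining libraries of 1 letter and bars for the mean of 2. For these genes both red points lie above both blue ones, by the widest margin for CXCL3, and in EGR1 and ZFP36 the letters stand apart in both groups.

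Among the genes that fell were 3 inhibitors of differentiation. ID1, a helix-loop-helix protein that blocks DNA binding by its partners, had 50.8 and 39.4 CPM after TNF, against 119.7 and 74.3 CPM in unstimulated cells (log2 fold change −1.08 ± 0.10 (SE), adjusted p = 3.12e-07). ID2 had 4.61 and 3.11 CPM after TNF, against 8.30 and 6.01 CPM in unstimulated cells (log2 fold change −0.90 ± 0.19 (SE), adjusted p = 0.0083), and ID3 6.91 and 5.62 CPM after TNF, against 13.1 and 8.27 CPM in unstimulated cells (log2 fold change −0.77 ± 0.17 (SE), adjusted p = 0.0118). In all 3 genes both TNF libraries lay below both unstimulated ones. WNT4, a secreted signalling protein, had 0.384 and 0.589 CPM after TNF, against 1.80 and 1.48 CPM in unstimulated cells (log2 fold change −1.75 ± 0.38 (SE), adjusted p = 0.012). ELOVL7, a fatty acid elongase, had 2.85 and 2.95 CPM after TNF, against 5.34 and 5.44 CPM in unstimulated cells (log2 fold change −0.88 ± 0.17 (SE), adjusted p = 0.00334).

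Of these, ELOVL7 alone passed without the block, where the others had an adjusted p from 0.0828 to 1. With a library left out, ID1 kept its call in all 4 fits. The call of WNT4 and of ID3 was lost without unstimulated replicate B (0.163 and 0.265) or TNF replicate B (0.271 and 0.323), that of ELOVL7 without TNF replicate B (0.141), and that of ID2 without unstimulated replicate B (0.253) or TNF replicate C (0.129).

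Several other falls kept the call with each library left out. ZNF697, a zinc-finger protein, had 61.9 and 60.6 CPM after TNF, against 93.5 and 98.2 CPM in unstimulated cells (log2 fold change −0.65 ± 0.063 (SE), adjusted p = 6.05e-07), and ANGPTL4, a secreted lipase inhibitor, 46.3 and 38.9 CPM after TNF, against 65.4 and 62.5 CPM in unstimulated cells (log2 fold change −0.59 ± 0.075 (SE), adjusted p = 3.26e-05). ANO9, a membrane scramblase, had 11.6 and 13.7 CPM after TNF, against 18.4 and 20.5 CPM in unstimulated cells (log2 fold change −0.62 ± 0.10 (SE), adjusted p = 0.000654), and SESN2, a stress-induced regulator of growth, 67.4 and 86.1 CPM after TNF, against 105 and 108 CPM in unstimulated cells (log2 fold change −0.48 ± 0.072 (SE), adjusted p = 0.000239). All 4 kept the call in each of the 4 fits, as did TRAF1 and CLDN1. CLDN1, a claudin that seals tight junctions, had 171 and 221 CPM after TNF, against 246 and 341 CPM in unstimulated cells (log2 fold change −0.57 ± 0.058 (SE), adjusted p = 1.07e-06). Its relative CLDN4 went the other way, with 125 and 105 CPM after TNF, against 63.2 and 54.8 CPM in unstimulated cells (log2 fold change 0.95 ± 0.071 (SE), adjusted p = 6.77e-09), and no other of 12 tight junction and keratin genes was called. Of these 6 genes ZNF697 and CLDN4 passed without the block (adjusted p = 0.0109 and 0.0145), and the others had an adjusted p of 0.186 to 1.

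Of 6 ligands of the EGF receptor family 3 fell and 0 rose (median −0.24). HBEGF had 24.5 and 24.1 CPM after TNF, against 35.2 and 28.9 CPM in unstimulated cells (log2 fold change −0.40 ± 0.090 (SE), adjusted p = 0.0145), and EREG 114 and 105 CPM after TNF, against 136 and 122 CPM in unstimulated cells (log2 fold change −0.24 ± 0.059 (SE), adjusted p = 0.0301). NRG1 had 32.6 and 45.8 CPM after TNF, against 40.2 and 59.7 CPM in unstimulated cells, with overlap between the groups (log2 fold change −0.34 ± 0.068 (SE), adjusted p = 0.00484). HBEGF and EREG did not overlap between the groups. Of 13 unfolded protein and stress genes 4 fell and 1 rose (median −0.11): ATF4, a translation-controlled activator, its target ASNS, TRIB3 and HERPUD1 (log2 fold changes −0.20, −0.27, −0.42 and −0.32), against the chaperone HSPA1A (0.29), which has a near-identical copy and is uncertain. None of these 8 passed without the block (adjusted p from 0.541 to 1), and none kept its call with each of the 4 libraries left out in turn.

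Over all genes tested 1.81% were called higher and 0.964% lower, beside the list counts that follow. The survival genes BCL2L1 and BCL2A1 fell (log2 fold changes −0.32 and −0.33), 2 of 9 on their list. Of 22 interferon-stimulated genes GBP2 rose (0.78) and GBP3, GBP4 and IFIT2 fell (−0.48, −0.47 and −0.29), with a list median of −0.05. Of 14 antigen presentation genes TAP1 and PSMB8 fell (−0.29 and −0.33). Among these, GBP2 alone passed without the block, and GBP2 alone kept its call with each library left out. In the list of matrix protease and coagulation genes PLAU rose (0.38), and TFPI2 fell (−0.55, lost without TNF replicate B, adjusted p = 0.139). Of 13 pro-apoptotic genes BMF rose (0.74), of 13 p53 targets GDF15 rose (0.42) and SESN2 and FAS fell, of 9 hypoxia and metabolism genes TXNIP fell (−0.47), of 8 matricellular genes ANKRD1 fell (−0.56), and of 6 acute phase genes SERPINA3 rose. BMF, GDF15, TXNIP and ANKRD1 each lost the call without TNF replicate B. BMF and GDF15 also lost it without TNF replicate C, BMF and TXNIP without unstimulated replicate B, and GDF15 and ANKRD1 without unstimulated replicate C.

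**Figure D3:**
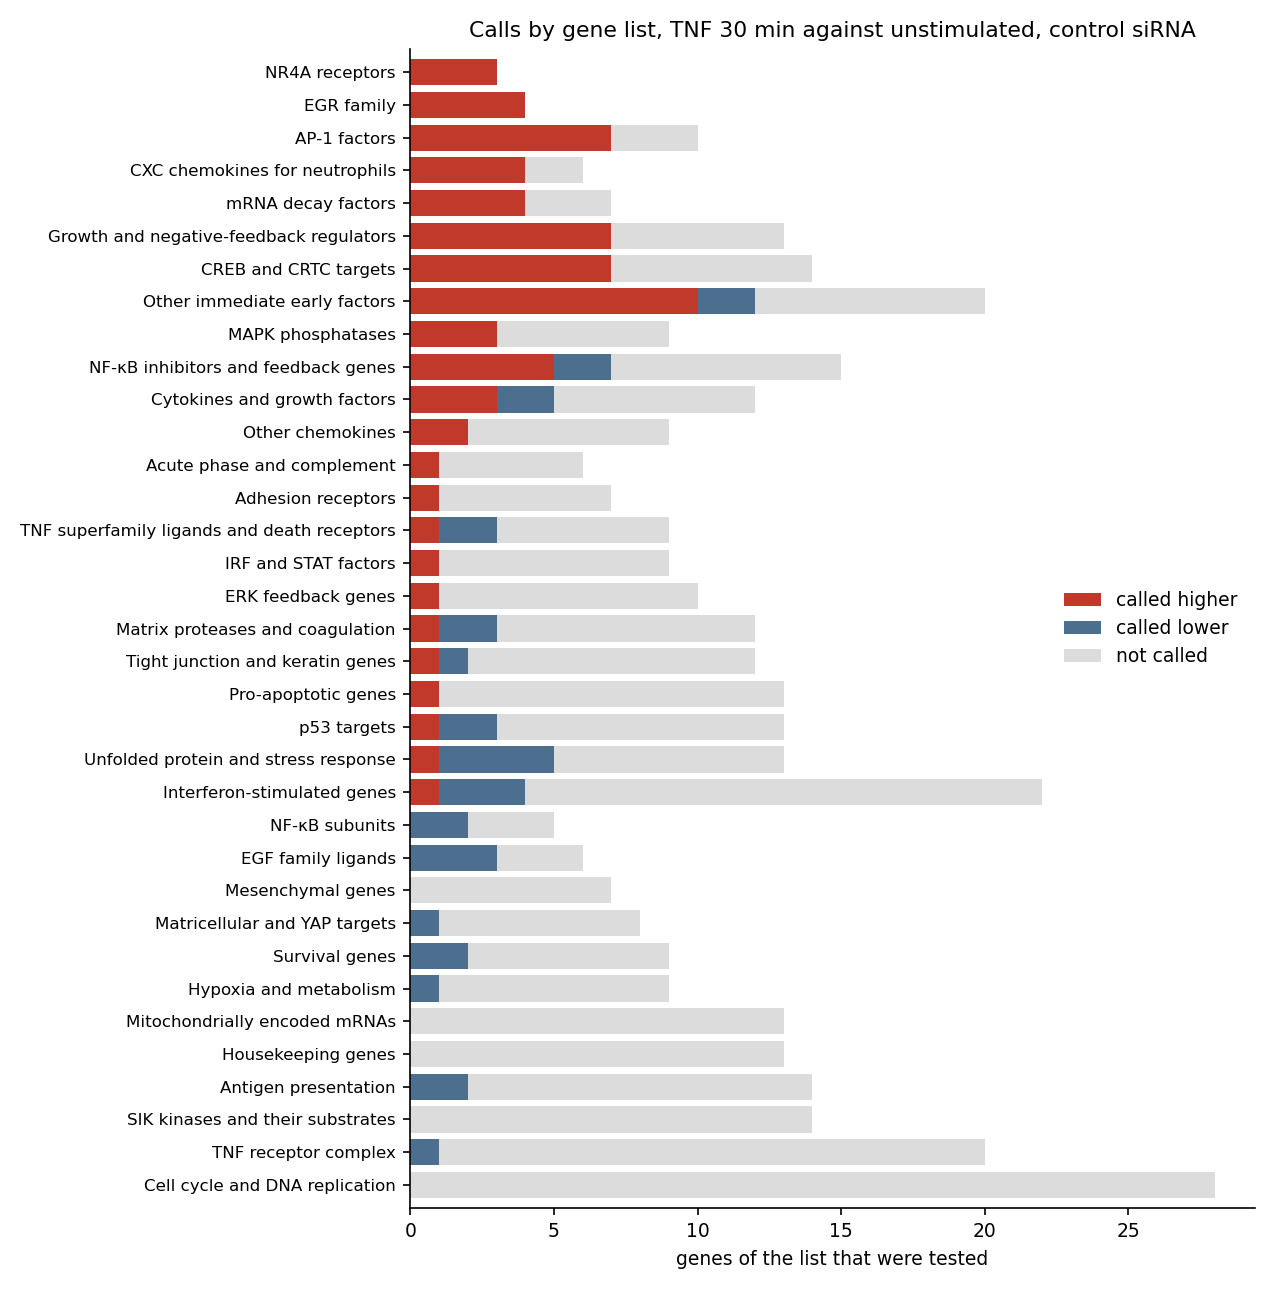
Number of tested genes in each of 35 gene lists that were called higher after TNF (red), called lower (blue) or not called (grey), ordered by the share called higher. The NR4A and EGR lists were red throughout, and the lists of cell cycle, SIK pathway, mesenchymal, mitochondrial and housekeeping genes had no call.

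Several lists had no call. Over all 16695 genes tested, 2193 had an unadjusted p under 0.05 in edgeR. By edgeR 0 of 28 cell cycle and DNA replication genes were called (2 at an unadjusted p under 0.05, 0 by DESeq2, 1 by voom), and 0 of 13 housekeeping genes (1 at an unadjusted p under 0.05, 0 by DESeq2, 1 by voom). Of 7 mesenchymal genes 0 were called (2 at an unadjusted p under 0.05, 0 by either other tool), and 0 of 14 SIK kinases, CRTC coactivators and class IIa deacetylase partners (5 at an unadjusted p under 0.05, 0 by either other tool). Of 14 CREB and CRTC targets 7 rose (median 0.62), 5 of which are the NR4A genes, FOS and DUSP1. The other two were PPARGC1A, a metabolic coactivator, with 2.03 and 2.04 CPM after TNF, against 0.634 and 0.566 CPM in unstimulated cells (log2 fold change 1.73 ± 0.38 (SE), adjusted p = 0.0124), and the clock gene PER1, with 7.68 and 14.5 CPM after TNF, against 4.55 and 8.41 CPM in unstimulated cells (log2 fold change 0.77 ± 0.14 (SE), adjusted p = 0.00155). Neither passed without the block (adjusted p = 0.134 and 1), and PPARGC1A lost the call whichever library was left out (0.067 to 0.226).

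Gene size was set beside the calls. The 281 protein-coding genes called higher had a median length of 29.3 kb and 8 exons in the longest transcript, the 157 called lower 32.4 kb and 9 exons, and all 12946 tested 33.5 kb and 10 exons (GENCODE 29, no test).

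At 4 h the control siRNA libraries placed many of these genes at other levels. The 30 min and 4 h groups are each set against the same 2 unstimulated libraries. Their values stand side by side, without a test between the 2 times. The 4 h and unstimulated libraries are also those that the titles name control siRNA with 30 min of TNF and without it. In that comparison 3928 genes passed the test. EGR2 had 2.01 and 2.83 CPM in unstimulated cells, 17.1 and 23.7 CPM at 30 min and 1.76 and 1.66 CPM at 4 h. FOS had 38.9 and 38.95 CPM in unstimulated cells, 63.8 and 88.8 CPM at 30 min and 11.2 and 10.99 CPM at 4 h, and IER2 51.9 and 48.1 CPM in unstimulated cells, 150.3 and 149 CPM at 30 min and 56.4 and 52.97 CPM at 4 h. At 4 h both libraries were below both unstimulated ones in EGR2 and FOS, and close above them in IER2. CXCL3 (12.6 and 8.38 CPM at 4 h) and NFKBIZ (106 and 111 CPM) lay between the unstimulated and 30 min levels. TNFAIP3 had 271 and 281 CPM at 4 h, CCL20 315 and 179.6 CPM and IRF1 792 and 805 CPM, all above their 30 min levels.

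Several genes that were lower at 30 min stood far higher at 4 h. TRAF1 had 53.5 and 51.9 CPM in unstimulated cells, 27.5 and 30.0 CPM at 30 min and 319.5 and 304 CPM at 4 h. CYLD had 96.0 and 90.4 CPM in unstimulated cells, 73.8 and 71.3 CPM at 30 min and 371 and 310.2 CPM at 4 h, and ELOVL7 5.34 and 5.44 CPM in unstimulated cells, 2.85 and 2.95 CPM at 30 min and 105 and 89.2 CPM at 4 h. In each of these both 30 min libraries were the lowest and both 4 h libraries the highest. CSF1 had 287 and 424 CPM in unstimulated cells, 213 and 346 CPM at 30 min and 979 and 1420.3 CPM at 4 h, with the same order within each replicate letter, and RELB 38.8 and 36.3 CPM in unstimulated cells, 27.3 and 27.9 CPM at 30 min and 95.7 and 81.1 CPM at 4 h. ICAM1, not called at 30 min, had 2397 and 2913 CPM at 4 h.

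**Figure D4:**
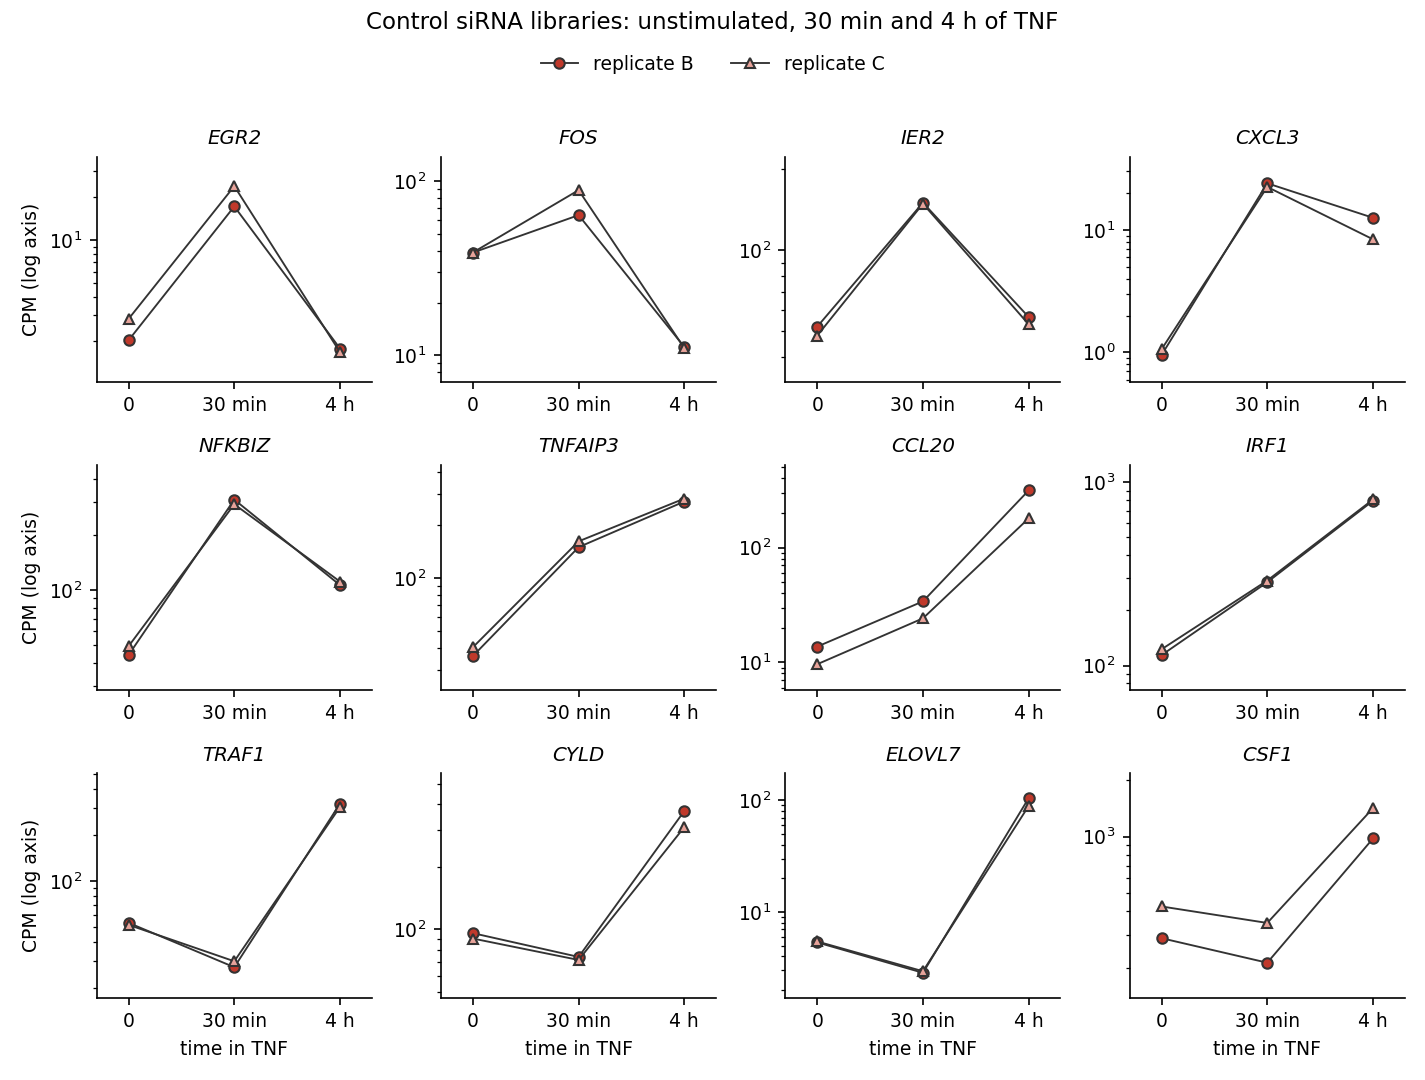
CPM on a log axis for 12 genes in the control siRNA libraries, unstimulated (0), after 30 min and after 4 h of TNF, with 1 line per replicate letter. EGR2, FOS, IER2, CXCL3 and NFKBIZ peaked at 30 min, TNFAIP3, CCL20 and IRF1 were highest at 4 h, and TRAF1, CYLD, ELOVL7 and CSF1 dipped at 30 min before their high 4 h level.

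The SIK3 siRNA libraries share none of these 4 libraries. Their 4 h response was compared with the 30 min calls in a comparison added after seeing the data. Of 16695 genes 2080 were higher (12.5%) and 1562 lower (9.36%) after 4 h of TNF than in unstimulated cells with SIK3 siRNA. Among the 161 genes lower at 30 min with control siRNA, 83 (51.6%, and 3.99% of the 2080) were in that higher set, and 15 (9.32%, and 0.96% of the 1562) in the lower set. Of the 303 genes higher at 30 min, 125 (41.3%, and 6.01% of the 2080) were in the higher set and 44 (14.5%, and 2.82% of the 1562) in the lower set. TRAF1, for example, had 104 and 99.2 CPM after 4 h, against 35.8 and 34.6 CPM in unstimulated cells with SIK3 siRNA (log2 fold change 1.53, adjusted p = 5.29e-13).

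The same 30 min of TNF was also given to cells with SIK3 siRNA, in 4 other libraries. There 279 genes were higher (1.67%) and 284 lower (1.7%). Of the 303 genes higher with control siRNA, 270 had the same sign, 124 were called in the same direction (40.9% of the 303 and 44.4% of the 279), and 3 were called lower. Of the 161 lower genes 149 had the same sign and 67 were called lower (41.6% of the 161 and 23.6% of the 284), and 2 were called higher. The count of 563 was 214 to 248 with any 1 of these 4 libraries left out, and 25 without the block. All 4 EGR and 3 NR4A genes and 4 of 6 CXC chemokines were called higher in these libraries too. TRAF1 fell there as well, to 18.4 and 16.6 CPM after TNF, against 35.8 and 34.6 CPM in unstimulated cells (log2 fold change −1.01, adjusted p = 1.42e-08).

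The response differed between the siRNAs for 44 genes (0.264%), in a test of the difference itself: 13 had a higher and 31 a lower log2 fold change with SIK3 siRNA. Of the 44, 29 had been called higher with control siRNA, and 27 of these had a lower log2 fold change with SIK3 siRNA. It was positive and smaller there for 20 of the 27 and negative for 7, of which 3 were called lower, CCL2 among them. CCL2 had 254 and 366 CPM after TNF and 354 and 468 CPM in unstimulated cells with SIK3 siRNA (log2 fold change −0.42, adjusted p = 2.37e-05; difference −0.67, adjusted p = 1.91e-05). CXCL1 had 88.2 and 106 CPM after TNF and 56.2 and 63.9 CPM in unstimulated cells with SIK3 siRNA, and the difference of the log2 fold changes, SIK3 minus control siRNA, was −1.22 (adjusted p = 8.64e-07). Both of its levels after TNF with SIK3 siRNA lay under those with control siRNA, and both unstimulated levels above. ZFP36 had 532 and 1946 CPM after TNF and 221 and 595 CPM in unstimulated cells (difference −1.22, adjusted p = 5.73e-06). NFKBIZ had 119 and 142 CPM after TNF and 40.2 and 37.1 CPM in unstimulated cells (difference −0.94, adjusted p = 4.49e-05), with a level after TNF below that with control siRNA.

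TXNIP, an inhibitor of thioredoxin and glucose uptake, rose with SIK3 siRNA (adjusted p = 2.93e-05) and fell with control siRNA (adjusted p = 0.00256). It had 35.5 and 34.5 CPM after TNF and 21.2 and 21.2 CPM in unstimulated cells with SIK3 siRNA, against 33.5 and 36.1 CPM after TNF and 53.02 and 42.8 CPM in unstimulated cells with control siRNA (difference 1.19, adjusted p = 1.44e-05). FOS had a larger log2 fold change with SIK3 siRNA, with 57.0 and 77.6 CPM after TNF and 18.0 and 18.9 CPM in unstimulated cells (difference 0.89, adjusted p = 0.00453). Within each letter, both of these levels of FOS lay below those with control siRNA. Without the block edgeR called 0 genes for this difference (317 at an unadjusted p under 0.05), and no other tool was run without it. The count was 29 without the TNF 30 min replicate B of SIK3 siRNA and 69 without unstimulated replicate C of control siRNA.

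**Figure D5:**
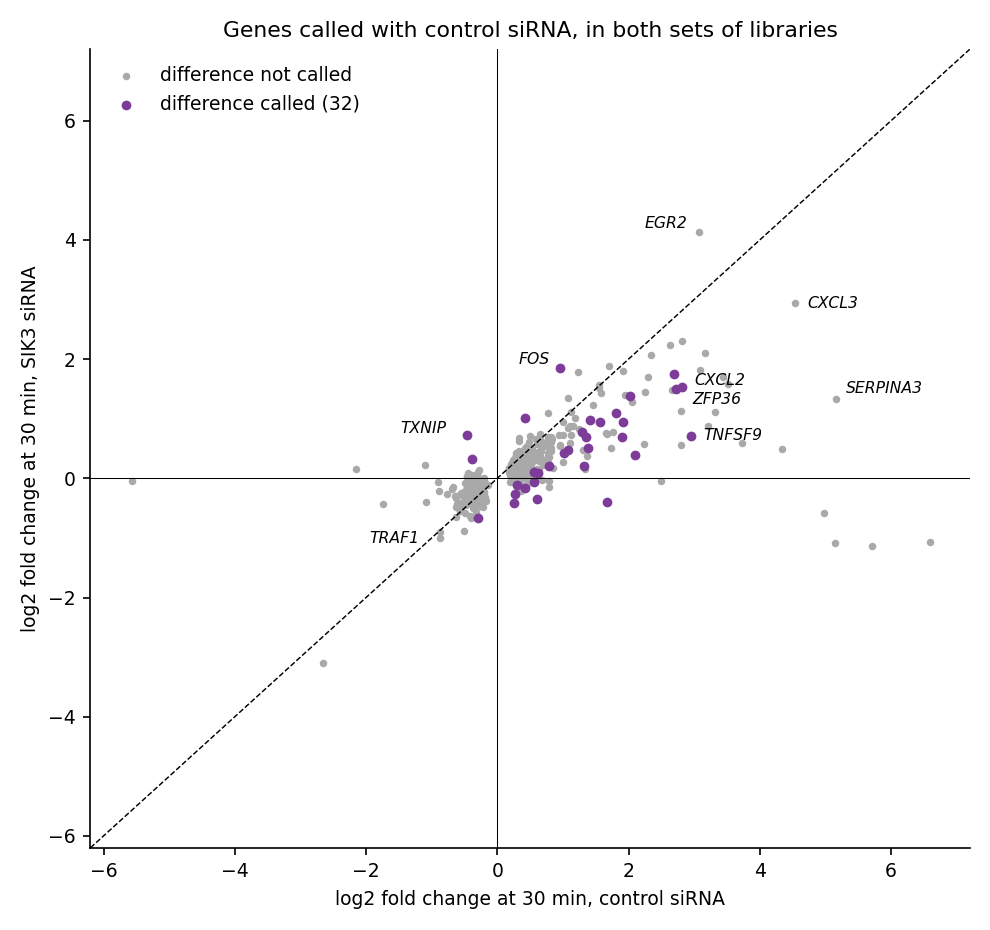
Log2 fold change at 30 min with SIK3 siRNA (vertical axis) against that with control siRNA (horizontal axis) for the 464 genes called with control siRNA, with the 32 whose difference between siRNAs was called in purple. The dashed line marks equal change: 27 of the 29 purple points to the right of 0 lie under it, among them CXCL2, ZFP36 and TNFSF9, and FOS and TXNIP lie above it.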

How the data were processed

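The deposited files hold raw read counts per gene, 1 file per library, with 60669 gene rows after 4 summary rows that were dropped. Per the labels, DNase-treated total RNA was made into ScriptSeq libraries. Per the submitters' processing notes, reads were mapped to GRCh38 with STAR 2.05b, and edgeR was used. The strand setting and annotation release of the authors' counting are not given in the sources used here, so reads of overlapping genes may be shared. Gene positions and types came from GENCODE 29, which matched 56927 identifiers. Names were current gene symbols, or those of GENCODE 29 where there was no current symbol.

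Library totals ran from 13535825 to 22699756 gene counts. Genes passing filterByExpr (minimum count 10) were fitted with edgeR 4.0.16 (R 4.3.3) on all 12 libraries in 6 groups, with TMM scaling, the replicate letter as a block, the quasi-likelihood test and Benjamini-Hochberg adjustment over all 16695 genes, with 5 residual degrees of freedom. Genes were called at an adjusted p under 0.05. Each SE was derived as the absolute log2 fold change divided by the square root of the quasi-likelihood F. It is an approximation, and the fit did not estimate it directly. An exact permutation test of 2 against 2 libraries cannot go below 0.333. The letters were treated as pairing the libraries: deviations of same-lettered libraries from their group means correlated in all 15 pairs of groups (0.35 to 0.53), and the labels give no further meaning of the letter. DESeq2 1.42.0 and limma 3.58.1 (voom) were alternatives. Replicates differed by more than counting noise in every group.

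On counts simulated from these libraries for this comparison (16075 genes fitted), 71.4% of genes changed 1.5-fold, 78% changed 2-fold, 88% changed 4-fold and 100% changed 8-fold were called, and 0.0819% of unchanged ones. The simulation gave each gene a letter effect common to all groups and the spread that the fit itself had estimated. These shares therefore check the fit under its own assumptions and do not measure the error rate in the real libraries.

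The members and gene lists were chosen with earlier results of these data known. The text names list members and, of the 20 higher and 20 lower called genes with the largest fold, a mean of at least 1 CPM in the higher group and no overlap, those it describes. Some genes that this rule or a list would name are not reported here. Tables and figures used Python 3.11.15.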

Additional observations from a re-analysis of the deposited data

Results flagged for a closer look

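The TNF response at 30 min differed between SIK3 siRNA and control siRNA for 44 of 16695 genes in the test of the difference itself, and 23 of them are named in the report. Values below are differences of log2 fold changes, SIK3 siRNA minus control siRNA, each with an adjusted p under 0.05. Among ligands the log2 fold change was lower with SIK3 siRNA for TNFSF9 −2.23, CXCL2 −1.28, CXCL1 −1.22, CCL20 −1.12, CXCL8 −0.96 and CCL2 −0.67, and CCL2 fell there where it had risen with control siRNA. Among NF-κB inhibitors and feedback genes, mRNA decay factors, phosphatases and ERK feedback genes it was lower for ZFP36 −1.22, NFKBIZ −0.94, TNFAIP3 −0.64, NFKBIA −0.62, DUSP5 −0.58, DUSP1 −0.58 and PHLDA1 −0.45. The difference was also negative for RHOB −0.87, JUN −0.66, BHLHE40 −0.61, IER5 −0.54, IRF1 −0.51, IER3 −0.44 and IFIT2 −0.38. It was positive for GDF15 0.58, FOS 0.89 and TXNIP 1.19. IFIT2 and TXNIP had fallen in the control siRNA libraries, and the other genes of this list had risen there. The SIK3 siRNA and control siRNA libraries were told apart by file words that conflict with the sample titles.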

How the results depend on the processing

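The 464 calls of the control siRNA comparison were 461 with DESeq2's size factors, 481 with library totals (267 higher, 214 lower), 393 by DESeq2, 473 by voom, 456 with a CPM filter, 620 with no filter, 469 and 516 in fits of 4 and of 6 libraries alone, and 155 to 362 with 1 library left out. Without the replicate block 49 remained, all among the 464, and 232 at an adjusted p under 0.01. The 563 calls with SIK3 siRNA became 25 without the block, 274 at an adjusted p under 0.01 and 214 to 248 with a library left out. The 44 genes whose response differed became 0 without the block, 180 with no filter and 29 to 69 with a library left out. Of the 107 called genes named in the text, 36 kept the call without the block and 69 without TNF replicate B, and with the other scalings, filters and tools at most 3 of those with an adjusted p lost it. PPARGC1A, CSF2, SERPINA3, NDUFB4P11 and AC002128.1 had no adjusted p from DESeq2, and PPARGC1A was not tested under the CPM filter. Otherwise their direction was the same under every alternative except the titles. With conditions taken from the titles, other libraries are compared and 3928 genes were called, 313 of them among the 464. By the file words those are the control siRNA libraries with 4 h of TNF against the unstimulated ones. Of the 107 called genes named in the text, 57 then kept the call in the same direction, 12 lost it and 38 changed sign. Among all genes named, called or not, the log2 fold change turned from negative to positive for ELOVL7 4.18, ICAM1 2.77, TRAF1 2.56, BCL2A1 2.20, WNT4 2.06, GBP4 2.01, ANO9 2.00, CYLD 1.87, FAS 1.84, CSF1 1.76, GBP3 1.38, TFPI2 1.36, BIRC3 1.34, NFKB1 1.32, TAP1 1.28, RELB 1.24, CXCL5 1.20, CDH5 1.17, BCL2L1 1.12, ID3 1.04, BIRC2 1.00, HBEGF 1.00, CLDN1 0.85, PSMB8 0.78, ZNF697 0.60, RELA 0.54, EREG 0.26, IFIT2 0.11, NRG1 0.10 and CXCL6 0.09. It turned from positive to negative for ZFP36L1 −0.11, CLDN4 −0.22, EGR1 −0.24, KLF10 −0.30, PPARGC1A −0.33, PER1 −0.34, FOSB −0.35, EGR2 −0.46, PHLDA1 −0.50, BMF −0.76, HES1 −1.05, FOS −1.81, IER5L −1.96 and GDF15 −2.66. With 2 libraries a group, single calls of low genes are limited by depth as well as by replicate number.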

Other observations

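Some of the largest changes at 30 min were in noncoding or little-described genes. AL021578.1, annotated as a sense intronic transcript, had 5.70 and 6.32 CPM after TNF, against 0.476 and 0.566 CPM in unstimulated cells (log2 fold change 3.52 ± 0.27 (SE), adjusted p = 1.66e-08), and AC002128.1, of the same class, 2.58 and 3.53 CPM after TNF, against 0.264 and 0.636 CPM in unstimulated cells (log2 fold change 2.80 ± 0.36 (SE), adjusted p = 4.53e-05). NDUFB4P11, annotated as a transcribed pseudogene, had 4.00 and 3.86 CPM after TNF, against 0.740 and 0.848 CPM in unstimulated cells (log2 fold change 2.299 ± 0.30 (SE), adjusted p = 5.13e-05). All 3 were several times higher in both TNF libraries than in both unstimulated ones, and reads of the genes they overlap or resemble cannot be told apart. EPB41L4A-AS1, a long noncoding RNA, fell, with 16.2 and 11.2 CPM after TNF, against 21.6 and 22.1 CPM in unstimulated cells (log2 fold change −0.68 ± 0.12 (SE), adjusted p = 0.00255), a call lost without unstimulated replicate C (0.0587) or TNF replicate C (0.0602). AL021578.1 and NDUFB4P11 also passed without the block (adjusted p = 0.000292 and 0.0137), and AC002128.1 and EPB41L4A-AS1 did not (0.0546 and 0.85).

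The 13 mitochondrially encoded mRNAs summed to 2376 and 8453 CPM after TNF and to 1534 and 8670 CPM in unstimulated cells (replicate B, then C), so that the letters differed by far more than the groups.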
